A study of Homo sapiens with 4 samples.

Results

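The sites described here are 2052 GGAC adenosines that the study's synthetic RNAs carry in addition to the adenosine for which each RNA was designed. Each has G at −2, G at −1, C at +1 and A, C or U at +2, so that it lies in 1 of the 3 GGACH motifs of the m6A consensus DRACH (D stands for any base but C, R for a purine, H for any base but G). They were found by scanning every sequence, edges left out, in the m6A and Unmethylated DRACN groups, leaving out the selected adenosine at position 51. They lay in 1511 of the 3488 sequences and made up 24.8% of the 8271 bystander DRACH sites there, or 0.369% of the 556809 positions of all 3949 designed sequences. The rule used sequence, position and designed group and no count of these libraries, but it was set with earlier results of these data known.

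The libraries came from RNA transcribed in vitro from 11999 designed oligonucleotides. Each RNA held 146 nt of a human transcript, a 15-nt tag and a 21-nt linker, and each sequence of the 2 groups was present with up to 3 tags. The unmethylated group (2 libraries) was RNA without the recombinant METTL3–METTL14 complex and the methylated group (2 libraries) was RNA incubated with it. Both groups then went through miCLIP2, in which 500 ng RNA was crosslinked to an m6A antibody and reverse transcription stopped at the crosslink. No cells were present in either group, so the complex acted on naked RNA. The words m6A (1988 sequences) and Unmethylated DRACN (1500 sequences) describe how the selected adenosine was read in HEK293T, an established line from human embryonic kidney, and say nothing about the bystanders.

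METTL3 carries the catalytic site of the complex, and METTL14 helps to hold the RNA. Together they transfer a methyl group to the nitrogen at position 6 of adenosine, mainly within DRACH. GGAC is widely known as a favoured core of that consensus. In cells, proteins bound at exon junctions also limit which DRACH sites are methylated, and such proteins were absent here.

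The following windows show the members on which most of the single-site results rest, from strong responders to members that did not pass the test. Each runs from 10 nt before to 10 nt after the adenosine, 5′ to 3′, with T for U and the 5-mer in capitals. All are designed sequences copied from the deposited table.

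PDXDC1 GGACA: atgctggaGGACAgtcagagg
YLPM1 GGACA: gcagtgaaGGACAtgccagtg
CIC GGACA: acgtcgagGGACAgtgaggcc
DLG5 GGACA: tctgagctGGACAagctgcag
COA5 GGACC: cttgcattGGACCagtccctg
ATP13A2 GGACC: agcatttgGGACCcaggtctt
TMEM248 GGACC: ttgctggtGGACCtcaggatt
OGFR GGACC: gcccggcaGGACCtgcagggg
GLRX5 GGACT: cagaatggGGACTtggtggaa
VPS4A GGACT: ttctcagaGGACTttgggcaa
PMS2 GGACT: gtggagaaGGACTcggggcac
PMS2CL GGACT: gtggagaaGGACTcggggcat

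Over all 2052 members, without a count filter, the crosslink signal went from 2649 and 2808 CPM (counts scaled to a common library total) in the unmethylated libraries to 9723 and 9832 CPM in the methylated ones. The methylated libraries lay far above the unmethylated ones, a ratio of 3.58 between means of 2728 ± 112.5 and 9778 ± 77.5 CPM (SD, n = 2 each). The members took 0.265% and 0.281% of all counts before, less than their 0.369% share of positions, and 0.972% and 0.983% after. The 2-sided exact permutation p over libraries was 0.333, and no arrangement of 2 and 2 libraries allows a smaller one. Library totals ran from 10483825 to 13265092 counts, of which the members held 27770 and 33776 without the complex and 127473 and 130429 with it.

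The difference was centred on the adenosine. One nucleotide upstream, the pooled ratio was 1.51, and at the other offsets from −5 to +5 it lay between 0.998 and 1.26. At the C behind the adenosine, the signal was 2330 and 2155 CPM before and 2601 and 2454 CPM after, a ratio of 1.13. In the 1360 members with no other DRACN adenosine within 10 nt, the ratio was 3.38 at the adenosine and 1.57 one nucleotide upstream. Both values were thus also seen without a neighbouring motif.

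Of the 2052 members, 826 (40.3%) reached 10 counts in 2 or more libraries and were tested. By edgeR's quasi-likelihood test, adjusted over all 142938 sites tested (Benjamini-Hochberg, threshold 0.05), 475 were higher in the methylated libraries and 0 lower. That is 57.5% of the tested members, against 3.7% called higher and 2.01% called lower among all sites. The median log2 fold change of tested members was 1.92, with quartiles of 0.92 and 3.34, and that of all tested sites was −0.01. With the 17 tested members that had no unmethylated count set at a bound of 3 counts per library, the members' median was 1.91. At an unadjusted p under 0.05, 5 members were lower, and DESeq2 called 0 lower. DESeq2 also called 356 of the 475 higher, where it called 2.13% of all sites higher. Against the total of each sequence, 426 members were higher, where 1.8% of all sites were, and 400 of them were among the 475.

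The count filter favours sites that are high after methylation. It was passed by 311 members through the methylated libraries alone, and 228 of these were among the calls. Among the 369 members with at least 10 counts in both unmethylated libraries, 187 (50.7%) were higher, against 2.75% of all 108009 such sites. Their median log2 fold change was 1.18, where that of all such sites was −0.11. The 1226 untested members went from 91.7 and 85.9 CPM to 230 and 279 CPM in sum, a ratio of 2.87. Of the 2052 members, 310 had no count in any library.

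Members differed widely among themselves. Log2 fold changes of the tested members spanned 0.27 at the 10th percentile and 4.52 at the 90th. In 252 members the value was above 3, and in 51 it was below 0, with a lowest value of −1.53. Tags of one sequence agreed in part. Of 210 members tested in all 3 tagged oligonucleotides, 98 were higher in 3, 42 in 2, 28 in 1 and 42 in none, where 3.8% of all oligonucleotide sites were called higher. The tags share the 4 libraries and are not replicates of the reaction.

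By the base at +2, GGACA had the largest pooled ratio. GGACA members (732) went from 905 and 941 CPM to 3652 and 3765 CPM, a ratio of 4.02. GGACU members (596) went from 827 and 883 CPM to 2993 and 2850 CPM, a ratio of 3.42. GGACC members (724) went from 917 and 984 CPM to 3078 and 3217 CPM, a ratio of 3.31. In each motif the groups of libraries did not overlap. The signal of GGACA over GGACC was higher in both methylated libraries than in both unmethylated ones, by 0.28 on the log2 scale, and that of GGACA over GGACU by 0.23. Both differences had an exact permutation p of 0.333 (0.5 after adjustment over the 3 pairs). GGACU over GGACC differed by 0.05 (exact permutation p = 1), with overlapping libraries, and the sign turned to −0.02 without methylated replicate 1.

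Among tested members, 64.4% of 317 GGACA, 60.7% of 239 GGACU and 46.7% of 270 GGACC sites were higher. The median log2 fold changes were 2.44, 1.84 and 1.54. Among members with at least 10 counts in both unmethylated libraries the shares were 53.3% for GGACA, 55.3% for GGACU and 44.4% for GGACC. The order of A and U thus depended on how sites were filtered, while GGACC was the lowest in both. Selected GGACH adenosines at position 51 had pooled ratios of 3.91 for GGACA, 3.73 for GGACC and 3.36 for GGACU.

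Bases outside the 5-mer also went with different shares. With U or A at +3, 69.1% and 64.9% of tested members were higher, with median log2 fold changes of 2.48 and 2.24. With G or C there, the shares were 55.1% and 47.7%, with medians of 1.77 and 1.54. The pooled ratios were 3.94 for U, 4.13 for A, 3.16 for G and 3.62 for C. At −3, members with A had the highest share (64.6% of 271), and G the lowest (51.7% of 242), with U at 56.2% and C at 53.6%. The pooled ratios gave another order, with 3.76 for U, 3.72 for A, 3.54 for G and 2.765 for C. Pairing was predicted from the 141-nt sequence as the mean unpaired probability of the 5-mer. Pooled ratios were 2.78 for members under 0.25, 3.76 from 0.25 to 0.5, 4.17 from 0.5 to 0.75 and 3.05 over 0.75. The shares called higher were 50.5%, 58.1%, 63.2% and 54.7%, so neither measure rose throughout. These are descriptions over sites that share the 4 libraries, and base, pairing and position were not separated from each other. The shares and medians are of tested members, and the count filter favours sites that are high after methylation. They were not repeated among members with at least 10 counts in both unmethylated libraries.

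Strong GGACA members included one in a sequence from PDXDC1, whose selected AGACC is at position 14997760 of chromosome 16 (plus strand). The member lies 57 nt downstream. Its signal was 1.72 and 1.25 CPM in the unmethylated libraries and 56.8 and 75.1 CPM in the methylated ones. This log2 fold change of 5.44 ± 0.35 (SE; edgeR adjusted p = 1.34e-09) was the largest among members with at least 10 counts in each unmethylated library. The sequence had been chosen around an adenosine unmodified in cells. YLPM1, a gene for a nuclear protein, gave a member 50 nt from any other DRACN adenosine (selected adenosine at position 74782200 of chromosome 14, plus strand). It went from 2.00 and 1.08 to 41.1 and 36.8 CPM, a log2 fold change of 4.64 ± 0.36 (SE).

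BORCS6 encodes a subunit of a complex that positions lysosomes, and its GGACA lies 21 nt downstream of a selected GGACU. It went from 1.05 and 1.08 to 30.97 and 25.3 CPM (log2 fold change 4.68 ± 0.36 SE). A GGACA of ARHGEF4 went from 1.05 and 0.831 to 22.9 and 19.9 CPM, 58 nt downstream of a selected UGACU unmodified in cells. In all 4 of these sequences the libraries of the 2 groups were separated in each of the 3 tags.

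The most abundant called GGACA, in a sequence from CIC, a transcriptional repressor, behaved differently. It already had 70.8 and 140.7 CPM without the complex and reached 226.7 and 267.9 CPM with it. The log2 fold change was 1.18 ± 0.29 (SE; edgeR adjusted p = 0.0154). Without unmethylated replicate 1 it was 0.75, and the call was lost (edgeR adjusted p = 0.0983). DLG5, a scaffold gene for cell polarity, had a GGACA 21 nt downstream of its selected UGACC with 65.3 and 79.98 CPM before and 136.5 and 120.8 CPM after. The libraries did not overlap, but the log2 fold change of 0.79 ± 0.26 (SE) missed the threshold (edgeR adjusted p = 0.0749). It passed with the total of the sequence as reference (edgeR adjusted p = 0.0422), with library totals as scaling (edgeR adjusted p = 0.0477) and without unmethylated replicate 2 (edgeR adjusted p = 0.0291).

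Among GGACC members, COA5, a gene for an assembly factor of cytochrome c oxidase, had the highest methylated signal of the sites named here. Its site lies 37 nt downstream of a selected GGACU (position 98599999 of chromosome 2, minus strand), with no other DRACN adenosine nearer. It went from 10.4 and 11.4 CPM to 295.4 and 348.5 CPM (log2 fold change 4.85 ± 0.30 SE, edgeR adjusted p = 7.05e-10). The whole sequence had means of 19570 and 44640 counts, and relative to them the log2 fold change was 3.93. ATP13A2, a lysosomal polyamine transporter gene, had the largest GGACC rise among members with at least 10 counts in each unmethylated library, 23 nt upstream of a selected AGACC. It had 1.53 and 5.40 CPM before, an unequal pair, and 126.2 and 108.3 CPM after. The log2 fold change of 5.02 ± 0.40 (SE) lay between 4.38 and 6.26 when single libraries were left out.

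PSKH1, a kinase gene, had a GGACC 72 nt downstream of its selected GAACU, with no other DRACN adenosine nearer. It went from 3.63 and 3.82 CPM to 45.7 and 46.7 CPM. In AJM1, a junction protein gene, a GGACC went from 8.11 and 7.57 to 81.8 and 88.5 CPM. TMEM248 showed a smaller rise from a higher start, from 28.9 and 53.96 to 97.3 and 133.3 CPM (log2 fold change 1.43 ± 0.30 SE, edgeR adjusted p = 0.00375).

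Other GGACC members did not pass the test. A GGACC of OGFR, the opioid growth factor receptor gene, had 103.5 and 119.1 CPM before and 111.1 and 102.9 CPM after, with overlapping libraries (log2 fold change −0.09 ± 0.25 SE, edgeR adjusted p = 0.908). The whole sequence had means of 111500 and 105300 counts. This was the most abundant member that was not called. A GGACC of OPRL1, the nociceptin receptor gene, had 18.3 and 21.8 CPM before and 15.6 and 19.5 CPM after (log2 fold change −0.23 ± 0.28 SE, edgeR adjusted p = 0.737). The same 21-nt window at another place in a second OPRL1 sequence, 18 nt upstream of the selected adenosine, had 2 and 11 counts before and 14 and 47 after (log2 fold change 1.95, edgeR adjusted p = 0.0749).

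The GGACU members with the largest rises, among those with at least 10 counts in each unmethylated library, started low. GLRX5, a mitochondrial glutaredoxin gene, had a GGACU 30 nt downstream of a selected UGACA (position 95544019 of chromosome 14, plus strand). It went from 2.19 and 1.25 CPM to 60.3 and 48.02 CPM (log2 fold change 4.96 ± 0.36 SE, edgeR adjusted p = 4.27e-09). VPS4A, an ATPase of the ESCRT machinery, had one 78 nt downstream of its selected GGACA, which went from 1.24 and 1.25 to 32.2 and 37.99 CPM (4.78 ± 0.35 SE on the log2 scale). ITGB1BP1, an integrin-binding protein gene, went from 2.86 and 3.58 to 77.4 and 93.4 CPM. The whole sequence had means of 5522 and 18490 counts, and relative to them the log2 fold change was 3.20 in place of 4.69.

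PMS2, a DNA mismatch repair gene, and its near-identical copy PMS2CL held the same GGACU 21 nt downstream of a selected GGACA, in sequences that differ at 7 of 141 positions. The PMS2 member went from 9.35 and 14.8 to 194.8 and 193.7 CPM (log2 fold change 3.97 ± 0.31 SE). The PMS2CL member went from 4.87 and 4.91 to 126.1 and 93.9 CPM (4.47 ± 0.32 SE). How reads were divided between such copies is not given in the sources used here, so these 2 members may share reads. The most abundant called GGACU after PMS2 lay 9 nt downstream of a selected GAACU on chromosome 9 (position 134824700). It went from 35.6 and 44.8 to 115.1 and 81.9 CPM, and the call ended without methylated replicate 1 (edgeR adjusted p = 0.142).

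The level of the signal varied with distance from position 51. Per member, the unmethylated signal was 0.259 CPM at 31 to 48 nt upstream, 0.582 CPM at 11 to 30 nt upstream and 1.44 CPM in the 10 nt upstream. Downstream it was 1.27 CPM within 10 nt, 2.19 CPM from 11 to 30 nt, 2.20 CPM from 31 to 60 nt and 0.943 CPM from 61 to 88 nt. Accordingly, 22.7% of the 295 members farthest upstream could be tested, against 55.9% of the 465 members at 31 to 60 nt downstream. The pooled ratios were 3.78, 3.42 and 3.07 upstream in the same order, and 3.36, 3.27, 3.67 and 4.31 downstream.

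The members farthest downstream (418, from 61 to 88 nt) thus had the highest ratio, with 398 and 390 CPM before and 1536 and 1858 CPM after. They also had the highest share called higher (65.6% of 186) and the highest median log2 fold change (2.45). The lowest share was that of the members 11 to 30 nt upstream (35 of 76, 46.1%, median 1.42). These shares and medians are of tested members, and the count filter favours sites that are high after methylation. They were not repeated among members with at least 10 counts in both unmethylated libraries. The same holds for the shares and medians by neighbouring motifs below. The signal at 61 to 88 nt over that at 11 to 30 nt downstream was higher in both methylated libraries than in both unmethylated ones, by 0.39 on the log2 scale (exact permutation p = 0.333). Without members that had another DRACN adenosine within 10 nt, the ratio at 61 to 88 nt was 3.50 and no longer the highest. The ratios were then 3.715 at 31 to 48 nt upstream, 3.43 at 11 to 30 nt upstream, and 3.135 at 11 to 30 nt and 3.48 at 31 to 60 nt downstream.

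Single members of these stretches follow, each the most abundant tested one. SPPL2B, an intramembrane protease gene, had a GGACA 6 nt upstream of a selected UGACU. It went from 25.9 and 34.8 to 158.5 and 102.8 CPM (log2 fold change 2.08 ± 0.29 SE). At the 5′ edge, a GGACA 48 nt upstream of a selected GAACU on chromosome 19 (position 16576403) had 1 and 15 counts before and 228 and 298 after, a log2 fold change of 4.77 ± 0.48 (SE), which ran from 3.92 to 7.56 when single libraries were left out. Toward the 3′ end, a GGACA 70 nt downstream on chromosome 22 (selected adenosine at position 50199261) went from 13.3 and 12.97 to 102.4 and 265.3 CPM. Its methylated libraries were unequal, and the log2 fold change was 2.97 to 4.27 when single libraries were left out.

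By the distance to the nearest other DRACN adenosine, the share called higher was 53.8% of 65 tested members with one at 1 to 5 nt, 56.9% of 248 at 6 to 10 nt, 59.4% of 202 at 11 to 20 nt and 57.6% of 311 at over 20 nt. The medians lay between 1.80 and 1.96. Pooled ratios were 4.31, 3.83, 2.96 and 3.73, and they moved with a few abundant members. The ratio for 1 to 5 nt was 3.58 and that for 11 to 20 nt was 3.49 without the 10 members with the most counts. Members in sequences with 1 GGACH in all, position 51 included, had a median of 2.11 (58.95% higher), and those with 2 a median of 2.09 (61.54% higher). With 3 the median was 1.54 (51.15% higher) and with 4 or more 1.59 (52.04% higher), so neither measure fell throughout.

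Whether motifs lay before or behind the member went together with its position. The 616 members with all other DRACN adenosines upstream had a ratio of 4.44 and 62.0% of 274 higher, and the 506 with all of them downstream had a ratio of 3.03 and 49.1% higher. Within the stretch of 31 to 60 nt, members with no DRACN adenosine behind them had a median of 2.00 and 57.7% higher, and those with at least 1 had a median of 1.77 and 61.5% higher. The pooled ratios there were 5.27 (none behind) and 3.10. At 11 to 30 nt they were 3.75 and 3.225, with medians of 2.14 and 1.69. At 61 to 88 nt the order was the opposite, with ratios of 3.75 and 5.55 and medians of 2.41 and 2.74, so no one order held over the stretches.

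Members of one sequence often differed in their calls. Of 141 sequences with at least 2 tested members outside chromosome 8, all members were called in 52, none in 32 and some in 57. The range of log2 fold changes within a sequence had a median of 1.38. Between the tags of a single member the range had a median of 1.24, so members of a sequence spread little more than repeats of one member. Whether the mixed calls go beyond low counts was not tested. A sequence from PRDM16, a zinc-finger transcription factor gene, held 5 tested members around its selected GGACA. The GGACA 30 nt downstream went from 2.29 and 1.25 to 19.5 and 14.3 CPM (log2 fold change 3.24 ± 0.37 SE) and the one 12 nt downstream from 0.382 and 0.665 to 2.90 and 4.83 CPM (2.80 ± 0.50 SE). The GGACC 6 nt upstream had 1.81 and 1.75 CPM before and 1.60 and 0.980 CPM after and was not called, nor were the members 30 and 40 nt upstream. The GGACA 30 nt upstream had 1 and 13 counts before and passed the threshold without unmethylated replicate 2 (edgeR adjusted p = 0.0291). A sequence on chromosome 1 (position 155563388) held 4 tested members, and the GGACC sites 32 and 84 nt downstream were called, with log2 fold changes of 2.14 and 3.31. Without single libraries these ran from 1.48 to 3.34 and from 2.86 to 3.996. The first had unequal unmethylated libraries (9.82 and 2.58 CPM) and was not called by DESeq2 (adjusted p = 0.199). In a sequence from NKX3-2, a homeobox gene of the developing skeleton, none of 4 tested GGACU members was called, with log2 fold changes from −0.16 to 1.20. The largest of these, 32 nt upstream, passed the threshold without unmethylated replicate 2 (edgeR adjusted p = 0.0453) and without methylated replicate 2 (edgeR adjusted p = 0.0434), and the one 40 nt downstream without unmethylated replicate 2 (edgeR adjusted p = 0.0485).

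The 1331 selected GGACH adenosines went from 1539 and 1715 CPM to 6019 and 5807 CPM, a ratio of 3.63, beside 3.58 for the bystanders. The signal of bystanders over selected ones changed by −0.02 on the log2 scale with overlapping libraries (exact permutation p = 0.667), and the sign turned to 0.01 without unmethylated replicate 1 or without methylated replicate 1. Among the other bystander DRACH sites, pooled ratios were 2.72 for GAACH, 1.90 for UAACH, 1.84 for AGACH, 1.507 for AAACH and 1.498 for UGACH. GGACH over GAACH, AGACH and UGACH was higher in both methylated libraries than in both unmethylated ones. The differences were 0.40, 0.96 and 1.26 on the log2 scale (exact permutation p = 0.333 each). Those to UAACH and AAACH were not tested.

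Selected GGACH had a ratio of 3.92 in the m6A group (1032 sites) and 2.34 in the Unmethylated DRACN group (299 sites). Bystanders had 3.75 (1302 members) and 3.26 (750 members). The m6A group over the other was higher after methylation by 0.75 on the log2 scale for selected adenosines and by 0.20 for bystanders (exact permutation p = 0.333 each). In the Unmethylated DRACN sequences the bystanders went from 891 and 952 to 3070 and 2940 CPM, and bystanders over selected ones were higher by 0.48 on the log2 scale in the methylated libraries, with no overlap (exact permutation p = 0.333, 0.667 after adjustment over 3 such comparisons). The order of the 2 groups for bystanders was not stable. Without the 10 members with the most counts, the ratios were 3.45 in the m6A group and 3.83 in the Unmethylated DRACN group. By single members, 317 of 562 (56.4%) were higher in the m6A group and 158 of 264 (59.8%) in the other, with medians of 1.79 and 2.07.

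For 57 members, an identical 21-nt window also surrounded a selected adenosine. In 56 of these the file's coordinates coincided as well, so the same adenosine was the selected one of another sequence. The remaining member, in SON, was a repeat of the window 30 nt upstream of the selected adenosine in the same sequence. For 50 members the selected adenosine was in the m6A group and for 7 in the Unmethylated DRACN group. As bystanders, the 57 went from 81.7 and 78.8 to 352 and 343 CPM, a ratio of 4.33. The 53 selected counterparts went from 59.7 and 66.3 to 182.8 and 141.8 CPM, a ratio of 2.58. The difference of 0.76 on the log2 scale had an exact permutation p of 0.333, with no overlap of libraries. Of 16 pairs tested on both sides, however, the bystander had the larger log2 fold change in 7, with medians of 1.92 and 2.07. Both were called higher in 5 pairs, the bystander alone in 4, the selected one alone in 3 and neither in 4. Differences ran from −4.69 to 2.74 on the log2 scale. The lowest was in TRIO, whose selected adenosine had 0 and 0 counts before, so that its fitted value depends on the prior count.

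The genes HOXB13 and RHOB show the range. In HOXB13, a homeobox gene, the GGACA of the window ttgcctgtGGACAgttaccag had 0.668 and 0.582 CPM before and 28.1 and 23.7 CPM after at 49 nt downstream of another selected adenosine (log2 fold change 5.33). As the selected adenosine it had 1.72 and 1.08 CPM before and 9.15 and 7.92 CPM after (2.59). In RHOB, a small GTPase gene, the GGACA of cttggggaGGACAcagcttca was present in 3 sequences. It had 7 and 5 counts before and 53 and 39 after at 11 nt downstream, and 10 and 7 before and 23 and 18 after at 54 nt downstream. As the selected adenosine it had 0 and 1 before and 23 and 16 after. The HOXB13 and RHOB pairs were chosen after their values were seen.

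Of the adenosines shared with another sequence, the 4 with the most signal as tested bystanders were those of GLRX5, BRSK2 and 2 unnamed loci. The GLRX5 GGACU described above, with 23 and 15 counts before and 791 and 637 after, had 0 and 0 before and 12 and 9 after as the selected adenosine of a sequence with a mean of 1146 counts in the methylated libraries, against 10930 for the bystander's. For BRSK2, a brain kinase gene, the bystander 62 nt downstream had 167 and 184 counts before and 493 and 425 after (log2 fold change 1.13), and the selected counterpart had 6 and 6 before and 61 and 64 after (3.10). In the same BRSK2 sequence, the GGACA 25 nt downstream went from 4.58 and 3.74 to 51.4 and 38.2 CPM (3.41 ± 0.32 SE). The BRSK2 GGACC 62 nt downstream was no longer called without methylated replicate 1, where its log2 fold change was 0.97. On chromosome 1 (position 2185054), a GGACA 62 nt downstream had 54 and 84 counts before and 534 and 563 after (2.74), and 22 and 34 before and 61 and 56 after as the selected one (0.81). On chromosome 9 (position 35080010), a GGACU 38 nt downstream had 18.89 and 17.21 CPM before and 36.99 and 40.03 CPM after (1.07). As the selected one it had 10.3 and 5.65 CPM before and 7.78 and 7.69 CPM after (−0.06). The chromosome 9 bystander missed the threshold against the total of its sequence (edgeR adjusted p = 0.113) and without either methylated library.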

How the data were processed

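The deposited table holds raw counts, made by the authors and not normalized, for 141 positions of each oligonucleotide in each library. Tools, per the submitters' processing notes, were bedtools 2.27.1, STAR 2.7.3a and FastQC 0.11.8. Their roles, duplicate handling and genome build: not given in the sources used here.

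Counts of the tags of a sequence were summed, and a site is 1 position of 1 sequence. Sites that reached 10 counts in 2 or more libraries were fitted with edgeR 4.0.16 in R 4.3.3 by the quasi-likelihood test, with TMM scaling and no covariate. Standard errors are the log2 fold change over the square root of F. CPM are counts over library totals. Pairing was predicted with ViennaRNA 2.7.2, and DESeq2 1.42.0 was an alternative. Permutation tests were exact, over libraries. The labels do not say that replicates were separate reactions, so p-values speak only of the spread among these 4 libraries, possibly technical. Same-numbered libraries of the 2 groups did not deviate together (r = −0.0781 over 142938 sites), so they were not treated as pairs.

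Gene names came from overlap of the deposited coordinates with RefSeq genes of GRCh38.p14, irrespective of strand, so a sequence may be antisense to its named gene. Of 3488 loci, 98.7% lay in a gene and 3033 in exactly 1, against 66.0% to 72.2% in a gene after shifting. Exons, introns and UTRs were not analysed here. Members and lists were chosen with earlier results of these data known. Named sites were, per base at +2, the 4 largest rises with at least 10 counts in each unmethylated library and the 2 most abundant calls, up to 5 falls, the most abundant of each distance bin, the 4 most abundant shared with a selected adenosine, 2 with repeated windows, those of the 3 sequences with the most members, and the 2 most abundant that were not called. Sites of chromosome 8 were not named.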

Additional observations from a re-analysis of the deposited data

Results flagged for a closer look

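The permutated sequences, in which the selected motif was exchanged, were not used in the comparisons above. Their 243 bystander GGACH adenosines, in 177 sequences, also gave more signal in the methylated libraries. They went from 84.2 and 78.2 CPM to 444.5 and 444.8 CPM, a ratio of 5.48 (exact permutation p = 0.333, the smallest possible). Only 54 (22.2%) reached the counts to be tested, and the count filter favours sites that are high after methylation. Of these 54, 37 were higher by edgeR (68.5%), against 3.7% of all sites tested. Most are versions of the same adenosines, so they are not independent of each other or of the members above.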

How the results depend on the processing

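Of 310 checks of the 39 named sites under other settings, 296 left the call as it was, 7 lost a call, 7 gained one and 0 reversed a call. Some sites that were not called changed sign. The OGFR GGACC, for example, went from −0.09 to 0.25 on the log2 scale with the total of the sequence as reference. The count of members called higher was 475, and 302 with at least 50 counts in 2 libraries, 299 among members with no other DRACN adenosine within 10 nt and 724 with each tagged oligonucleotide as a site, settings that change how many sites are tested. It ran from 379 to 469 when single libraries were left out. The count of members called lower was 0, and 2 with at least 50 counts and 1 with replicate number as a block; without single libraries it was 0 to 1. The replicate block gave 485 higher. The median log2 fold change of 1.92 was 2.00 with no count filter, 2.26 with at least 50 counts, 1.75 with sequence totals as offset and 2.13 by oligonucleotide. The shares called higher without a filter were 35.1% for GGACA, 23.1% for GGACC and 28.3% for GGACU. With at least 50 counts they were 85.8% for GGACA, 73.5% for GGACC and 76.7% for GGACU.

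With counts over sequence totals, pooled ratios were 3.39 for all members, 3.85 for GGACA, 3.14 for GGACC, 3.07 for GGACU, 2.98 at 11 to 30 nt, 3.34 at 31 to 60 nt, 2.81 and 3.55 for a nearest DRACN adenosine at 11 to 20 and over 20 nt, and 3.42 in the m6A group. Without the 10 members with the most counts, they were 4.31 for GGACA, 3.64 at 31 to 60 nt, 3.58, 3.49 and 3.28 for a nearest DRACN adenosine at 1 to 5, 11 to 20 and over 20 nt, 3.45 in the m6A group and 3.83 in the Unmethylated DRACN group. In members with no other DRACN adenosine within 10 nt, they were 3.38 for all, 4.27 for GGACA, 3.11 for GGACC, 3.04 for GGACU, 3.48 at 31 to 60 nt, 3.50 at 61 to 88 nt and 3.51 in the m6A group. GGACU over GGACC reversed to −0.034 in these members and ran from −0.0219 to 0.113 without single libraries; bystanders over selected GGACH ran from −0.0572 to 0.0147. TMM-scaled CPM, an alternative chosen after seeing the data, gave 3.60 at 31 to 60 nt. The causes were not tested. Low counts limit the 1226 untested members.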

Other observations

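In the permutated sequences, the same bystander GGACH can be read beside different selected motifs. For 33 bystanders of sequences designed with GGACU, the pooled ratio was 3.81 beside the original GGACU. It was 6.35 beside AAACC, 5.95 beside AGACU, 3.94 beside GAACC, 4.98 beside UAACC and 3.24 beside UGACU. For 24 bystanders of sequences designed with a weaker motif, it was 9.46 beside the original, 7.69 beside GAACU, 6.43 beside GGACA and 10.9 beside GGACU. Between 5 and 12 sites were tested in each version, and their pooled levels in the unmethylated libraries were low, from 3.33 to 18.7 CPM. The differences were not tested. In pairs tested in both versions, the bystander beside the exchanged motif had the larger log2 fold change in 4 of 7 for AAACC, 3 of 5 for AGACU, 3 of 7 for GAACC, 5 of 7 for UAACC and 3 of 6 for UGACU. For the sequences designed with a weaker motif it was larger in 2 of 3 for GAACU, 3 of 5 for GGACA and 3 of 3 for GGACU. For GAACU and GGACA this went against the order of the pooled ratios. So did the 3 of 7 for GAACC in the sequences designed with GGACU, where the ratio of 3.94 was above the 3.81 of the original.

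Of 5 bystander windows tested at 2 positions in different sequences, NELFE gave log2 fold changes of 0.36 at 12 nt and 0.73 at 54 nt downstream, ZNF503-AS2 gave 2.267 at 30 nt and 1.75 at 53 nt downstream, and STK11 gave 0.67 at 35 nt and 0.47 at 8 nt upstream. RHOB (2.66 at 11 nt and 1.00 at 54 nt downstream) and OPRL1 (1.95 at 18 nt upstream and −0.23 at 79 nt downstream) differed more. In OPRL1 neither value passed the threshold.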
